A study of Schizosaccharomyces pombe with 4 samples.

Results

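A set of 60 mRNAs of the chromosome arms of *Schizosaccharomyces pombe* had a density more than 6 times higher in libraries labelled *exo2*Δ than in libraries labelled WT, and their levels, functions, antisense XUTs and neighbours are described here. The 60 were taken from 5129 mRNAs in the deposited table, of which 4814 lay at least 100000 nt from both ends of chromosome I, II or III and had a mean WT density of at least 0.01 tag/nt (reads per nucleotide of the annotated feature). They make up 1.25% of those 4814. The ratio of mean densities chose them, so that the difference between the genotypes is given for them as a description, without a test. Another 22 arm mRNAs had a ratio above 6 but a WT density under 0.01 tag/nt, and 19 with a ratio above 6 lay within 100000 nt of an end.

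Exo2 is the fission yeast homolog of Xrn1, the cytoplasmic exoribonuclease that degrades RNA from its 5′ end once the cap has been removed. It acts on mRNAs at the end of their life and also on cytoplasmic long noncoding RNAs, and those that accumulate without it are called XUTs, for Xrn1-sensitive unstable transcripts. XUTs often lie antisense to protein-coding genes.

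Total RNA was sequenced from 2 biological replicates of strain YAM2394, labelled wild-type, and 2 of YAM2397, which differs by *exo2*Δ::*kanMX4* and is called, after its label, the mutant pair below. Both strains are *h+* (the P mating type) and carry *ade6-M210*, *ura4-D18* and *leu1-32*, and both were harvested untreated in mid-log growth at 32°C in YES, a rich medium. Each genotype is represented by 1 strain, so that other differences between the strains cannot be told apart from the deletion. Densities had been normalized by the authors on sn(o)RNAs.

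The labelled deletion was not visible at *exo2* itself. The gene (SPAC17A5.14, chromosome I, 1778445 to 1782740, + strand) measured 0.488 and 0.458 tag/nt in the WT pair against 0.663 and 0.636 tag/nt in the mutant pair. According to the study's methods the strains were checked by PCR on genomic DNA and by northern blot. Every direction below follows the labels. *ura4*, deleted in both strains, had 2 and 3 reads in the WT pair against 7 and 14 in the mutant pair. The libraries held 46964618 to 51019820 reads on the features of the table. In limma's test with Benjamini-Hochberg adjustment, 54.8% of the 5079 mRNAs tested and 61.5% of all 8826 features were called higher (adjusted p under 0.05 and more than 2-fold), and 0.276% of the mRNAs were called lower. This split rests on the scaling, since 2782 mRNAs were higher and 14 lower with the deposited one, against 266 and 488 with TMM factors and 250 and 515 with the median of ratios.

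The 60 ratios ran from 6.01 to 15.5, with a median of 7.31, against a median of 2.11 over all mRNAs and 2.09 over the 4814. Of the 60, 23 lay between 6 and 7, 17 between 7 and 8, 10 between 8 and 10, and 10 above 10. The WT and mutant values did not overlap for any of the 60, and the same order held for 91.1% of the 5079 mRNAs tested. The lower of the *exo2*Δ values was at least 4.2 times the higher of the WT values in all 60. In WT the 60 were weakly expressed, with a median density of 0.0835 tag/nt against 0.461 tag/nt for the 4814, and 33 were under 0.1 tag/nt. In the mutant pair their median was 0.711 tag/nt, against 1.01 tag/nt. Together they took 0.0927% and 0.0913% of the reads in the WT libraries and 0.517% and 0.545% in the mutant pair.

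**Figure D1:**
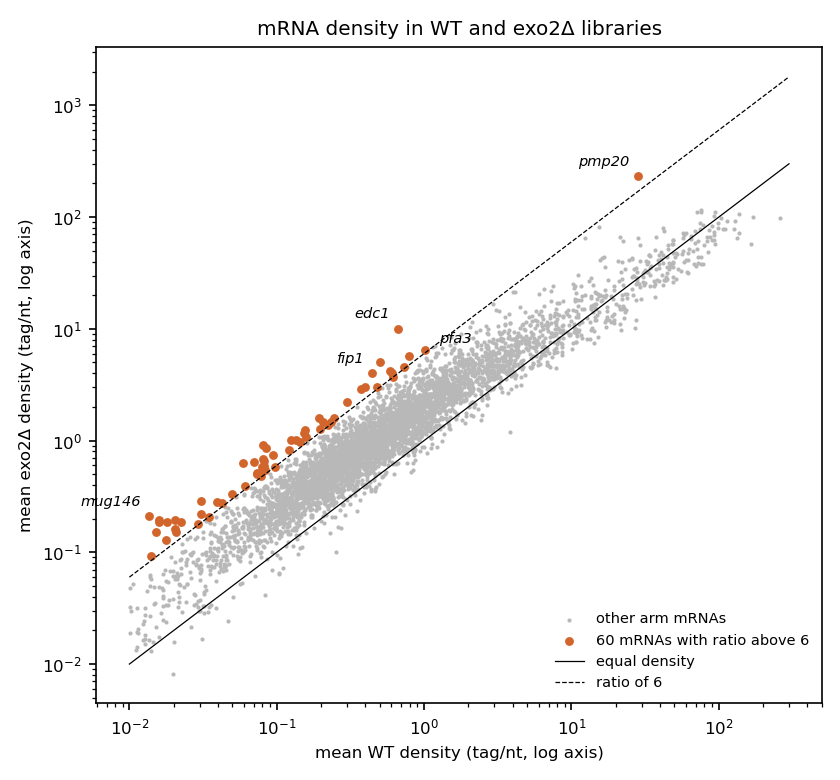
Mean WT density (x axis, tag/nt, log scale) against mean density in the libraries labelled *exo2*Δ (y axis, tag/nt, log scale) for the arm mRNAs, with the 60 in orange, the solid line at equal density and the dashed line at a ratio of 6. The 60 lie along the upper edge of the cloud, from *mug146* at 0.0136 tag/nt to *pmp20* at 28.3 tag/nt in WT.

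The size of each ratio rests on the sn(o)RNA normalization. With TMM factors the 60 ratios ran from 2.65 to 6.83 and the median mRNA tested was at 0.932, and with the median of ratios they ran from 2.61 to 6.73 with the median mRNA at 0.916. Each scaling divides all features of a library by 1 constant, so that a ratio relative to the median mRNA, 3.46 at the median of the 60, is fixed by construction and says nothing of the normalization.

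At the edge of the rule, *mis20* (ratio of 6.01) and *est1* (6.03) were just inside, and SPCPB1C11.03 (5.96) and SPBC18E5.09c (5.95) just outside. By WT density, *mug146* (0.0136 tag/nt) and *scr1* (0.0140 tag/nt) were just inside, and SPBC23G7.13c (0.00927 tag/nt, ratio of 8.01) and *bit2* (0.00863 tag/nt, ratio of 6.33) just outside. By distance from the chromosome end, SPAC922.03 (101121 nt) and SPAC11D3.19 (106892 nt) were the nearest inside, and *ecl1* (94313 nt, ratio of 7.20) and *str3* (88200 nt, ratio of 32.9) the nearest outside.

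Of the 60, 4 encode proteins of iron uptake, and 2 of these are neighbours that are transcribed away from each other. *fip1*, the high-affinity iron permease of the plasma membrane (SPAC1F7.07c, chromosome I, 4232998 to 4234760, − strand), measured 0.480 and 0.406 tag/nt in the WT pair against 4.21 and 3.84 tag/nt in the mutant pair, a ratio of 9.09. *fio1*, the ferroxidase that works with Fip1 (4235080 to 4237874, + strand), measured 0.874 and 0.595 tag/nt in the WT pair against 4.58 and 4.45 tag/nt in the mutant pair, a ratio of 6.14. The WT replicates of *fio1* differed from each other more than those of the other iron genes, and both lay below the mutant pair. *frp1*, the ferric-chelate reductase that supplies ferrous iron to this pair (chromosome II, 160357 to 162497, − strand), measured 0.241 and 0.249 tag/nt in the WT pair against 1.62 and 1.59 tag/nt in the mutant pair, a ratio of 6.56. *frp2*, annotated as another ferric-chelate reductase, measured 0.0583 and 0.0601 tag/nt in the WT pair against 0.660 and 0.593 tag/nt in the mutant pair, a ratio of 10.6. Reductase, oxidase and permease, which act one after the other at the plasma membrane, were thus all among the 60.

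The starts of *fip1* and *fio1* are 319 nt apart in the deposited table and 303 nt apart in RefSeq, so that a shared region lies between them. The 250 nt before the RefSeq start of *fio1* are shown because they are upstream of both genes (assembly ASM294v3, chrI:4234822-4235071, + strand, read 5′ to 3′ toward *fio1*). Capitals mark GATAA on either strand, the core of the sites bound by GATA factors, a family that in fission yeast includes the iron-dependent repressor Fep1.
fip1-fio1 region: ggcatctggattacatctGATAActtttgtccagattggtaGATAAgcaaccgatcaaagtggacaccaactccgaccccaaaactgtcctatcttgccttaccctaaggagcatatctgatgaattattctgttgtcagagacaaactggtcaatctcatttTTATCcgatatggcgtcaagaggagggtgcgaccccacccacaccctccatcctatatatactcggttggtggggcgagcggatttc
The window held 3 such matches, and the window of the same length before *fip1*, which shares 197 nt with it, held 3 as well. Matches to GATAA are common. They occurred in 32 of 58 windows of the 60 genes found in RefSeq (55.2%) and in 2768 of 5110 windows of all genes (54.2%), so that a match is a description only.

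Of the 11 other genes of an iron and copper list that were tested, 8 were called higher, beside 54.8% of all mRNAs, with a median ratio of 2.45 beside 2.11. Among these, *str1*, a siderophore transporter, measured 0.642 and 0.539 tag/nt in the WT pair against 3.14 and 3.13 tag/nt in the mutant pair (ratio of 5.31, adjusted p = 2.51e-06 from limma). *fep1* itself had a ratio of 2.17 (adjusted p = 1.43e-05), *php4*, a repressor of iron-using genes, 3.06 (adjusted p = 4.31e-06), and *sib2*, an enzyme of siderophore synthesis, 0.917 (adjusted p = 0.212). *str3* and *shu1*, a siderophore transporter and a heme uptake protein, had larger ratios than any of the 60 but lie within 100000 nt of a chromosome end. The median of the list stayed above 1 under all scalings, at a log2 ratio of 0.09 with the median of ratios, where 3 genes were called higher and 1 lower.

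Another 5 encode transporters of other nutrients. *isp5*, an amino acid permease (chromosome I, 5465377 to 5468649, + strand), measured 0.0163 and 0.0157 tag/nt in the WT pair (63 and 57 reads) against 0.199 and 0.192 tag/nt in the mutant pair (555 and 549 reads), a ratio of 12.2. *amt3*, an ammonium transporter (chromosome I, 2924692 to 2927075, − strand), measured 0.0174 and 0.0189 tag/nt in the WT pair against 0.213 and 0.160 tag/nt in the mutant pair, a ratio of 10.3. *opt3*, of the oligopeptide transporter family (chromosome III, 2281612 to 2284101, + strand), measured 0.0929 and 0.0753 tag/nt in the WT pair against 0.948 and 0.778 tag/nt in the mutant pair, a ratio of 10.3. In each of these 3 the WT replicates lay close together and far below the mutant pair. *per1*, an amino acid permease, was higher in WT, at 0.528 and 0.424 tag/nt, and at 2.92 and 3.15 tag/nt in the mutant pair, a ratio of 6.37. SPAC11D3.18c, annotated as a carboxylic acid transporter, had a ratio of 7.65.

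Of the 24 other genes of a nitrogen and amino acid list, 7 were called higher, which is 7 of 24 where 54.8% of all mRNAs were. The 7 included the ammonium transporter *amt1* (ratio of 4.53, adjusted p = 4.52e-06 from limma), *isp7* (4.29, adjusted p = 5.63e-06) and the amino acid permease *put4* (3.68, adjusted p = 6.19e-06). The third ammonium transporter, *amt2*, had a ratio of 1.68, which was not past the 2-fold threshold. The arginine and glutamine synthesis genes on the list had ratios between 0.989 and 1.69 and were not called. The list's median log2 ratio was 0.82 with the deposited scaling and changed sign with the TMM factors (-0.37) and the median of ratios (-0.39).

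A further 6 encode metabolic enzymes, with ratios from 6.14 to 8.03. SPBC1773.13, an aromatic aminotransferase, measured 0.0710 and 0.0937 tag/nt in the WT pair against 0.667 and 0.656 tag/nt in the mutant pair, a ratio of 8.03. SPAC922.03, annotated as an aminocyclopropane carboxylate deaminase, measured 0.152 and 0.159 tag/nt in the WT pair against 1.16 and 1.30 tag/nt in the mutant pair, a ratio of 7.91. *urg2*, a putative uracil phosphoribosyltransferase of a gene cluster known to respond to uracil, measured 0.412 and 0.383 tag/nt in the WT pair against 3.44 and 2.64 tag/nt in the mutant pair, a ratio of 7.65. Its divergent neighbour *urg3*, 365 nt away, had a ratio of 2.15 (adjusted p = 1.32e-05 from limma). The other 3, *cao2* (a copper amine oxidase-like protein), SPAC11D3.10 (of the cysteine desulfurase family) and the aminotransferase SPAC27F1.05c, had ratios of 7.32, 7.31 and 6.14.

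In position, 5 of the 60 lie in a stretch of 40.04 kb at the left of chromosome I, from 106893 to 146935, which holds 19 mRNAs. SPAC11D3.19, uncharacterized, measured 0.0822 and 0.0779 tag/nt in the WT pair against 0.899 and 0.913 tag/nt in the mutant pair, a ratio of 11.3. Its convergent neighbour SPAC11D3.01c, a small protein of the Con-6 family, lies 370 nt away and measured 0.475 and 0.527 tag/nt in the WT pair against 5.01 and 5.17 tag/nt in the mutant pair, a ratio of 10.2. SPAC11D3.10, SPAC11D3.20 and SPAC11D3.18c are the other 3. Between them lie genes with smaller ratios. SPAC11D3.02c, next to SPAC11D3.01c, had a ratio of 1.55. The 19 genes had a median ratio of 2.54, which includes the 5 chosen for their high ratios. SPAC11D3.20 is a short open reading frame of 87 nt with 2 and 4 reads in the WT pair against 13 and 20 in the mutant pair, which gives a pooled ratio of 7.32 with an exact 95% interval of 3.03 to 21.4 for counting error alone, and its ratio was 11.3 without WT replicate 2. It lies wholly opposite SPAC11D3.11c (ratio of 3.34). More generally, 11 of the 60 (18.3%) lay within 150000 nt of a chromosome end, against 108 of the 4814 (2.24%).

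A group of 6 is placed here under mating, meiosis and sporulation, while *isp5* and *tam12*, whose names also come from sexual differentiation and meiosis, are described with other groups. *mug146* (named for upregulation in meiosis) had the largest ratio of all. It measured 0.0117 and 0.0156 tag/nt in the WT pair (16 and 20 reads) against 0.222 and 0.199 tag/nt in the mutant pair (219 and 201 reads), a ratio of 15.5, with an exact 95% interval of 11 to 22.5 for the pooled reads. *meu14*, a component of the leading edge of the forespore membrane in sporulation, measured 0.0123 and 0.0178 tag/nt in the WT pair (17 and 23 reads) against 0.165 and 0.142 tag/nt in the mutant pair, a ratio of 10.2. *mug14*, an adducin-like protein, measured 0.127 and 0.123 tag/nt in the WT pair against 1.048 and 0.992 tag/nt in the mutant pair, a ratio of 8.15. *mug121* and *mug135* had ratios of 6.40 and 6.16. These 5 genes started from low WT levels, the highest being *mug121* at 0.208 and 0.187 tag/nt.

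*mfm2*, one of the genes that encode the M-factor pheromone, was expressed in these *h+* cells, which secrete the other pheromone. It measured 0.0863 and 0.0744 tag/nt in the WT pair (52 and 42 reads) against 0.705 and 0.655 tag/nt in the mutant pair (306 and 291 reads), a ratio of 8.47. *mfm1* had 3 and 4 reads in the WT pair against 23 and 15 in the mutant pair (ratio of 7.20, adjusted p = 0.00204 from limma). *mfm3* went the other way in its values, with 0.101 and 0.110 tag/nt in the WT pair against 0.0916 and 0.0867 tag/nt in the mutant pair, but the difference was not past the threshold (ratio of 0.845, adjusted p = 0.168). The M-cell genes *mam1* and *mam2* had ratios of 2.17 and 2.19 and the P-cell genes *map2* and *map3* 2.16 and 2.32, close to the median mRNA. Further from it were the M-cell gene *mam3* at 4.37 (adjusted p = 5.81e-05 from limma) and the P-cell gene *map4* at 1.81. The latter was not past the 2-fold threshold (adjusted p = 0.024). In bulk RNA, a few cells of the other mating type and low expression in all cells cannot be told apart.

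The coding sequences of the 3 M-factor genes are shown because their products are alike, and reads could in principle be shared between them (RefSeq, ASM294v3, exons joined and read 5′ to 3′ on the coding strand, with *mfm2* on chromosome I between 2913008 and 2913184, *mfm1* on chromosome I between 4917099 and 4917298 and *mfm3* on chromosome II between 700364 and 700556). Capitals mark runs of at least 15 nt found in another of the 3.
mfm2: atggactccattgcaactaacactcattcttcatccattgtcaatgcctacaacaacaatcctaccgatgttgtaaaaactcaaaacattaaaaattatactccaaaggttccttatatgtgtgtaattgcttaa
mfm1: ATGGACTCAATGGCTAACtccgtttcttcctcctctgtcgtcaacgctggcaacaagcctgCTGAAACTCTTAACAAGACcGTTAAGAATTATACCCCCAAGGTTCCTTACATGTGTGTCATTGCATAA
mfm3: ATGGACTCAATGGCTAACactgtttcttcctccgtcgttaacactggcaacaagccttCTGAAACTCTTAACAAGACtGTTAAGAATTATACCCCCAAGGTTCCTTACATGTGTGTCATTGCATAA
The coding sequence of *mfm2* shares no run of that length with the other genes, the longest being 11 nt with each, while *mfm1* and *mfm3* share 48 nt. Reads of 50 nt from the coding sequence of *mfm2* can therefore be told from those of its relatives.

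Of 25 other genes of a pheromone and mating list, 16 were called higher, beside 54.8% of all mRNAs, with a median ratio of 2.17, and of 17 other sporulation genes 9 were called higher and 1 lower, with a median of 2.26. The 11 meiotic regulators tested had a median ratio of 2.78 with 5 called higher, among them the forkhead factor *mei4* (ratio of 5.73, adjusted p = 9.64e-06 from limma). Of 10 targets of Mmi1, the protein that removes meiotic mRNAs from growing cells, 2 were called higher, and their median ratio was 1.03. The medians of the pheromone, sporulation and Mmi1 lists changed sign with the TMM factors (-0.06, -0.01 and -1.12 on the log2 scale), as they did with the median of ratios. With the TMM factors the counts of higher and lower were 2 and 2 for the pheromone list, 1 and 1 for sporulation, 1 and 1 for the meiotic regulators and 1 and 5 for the Mmi1 targets. Of 17 genes of meiotic recombination 9 were called higher, with a median ratio of 2.16 that also changed sign with the TMM factors (-0.07 on the log2 scale, 0 called higher and 1 lower). The other genes with *mug* names had a median ratio of 2.35 (51 of 82 called higher and 1 lower, but 6 and 7 with the TMM factors) and those with *meu* names 1.93 (8 of 18 called higher), a median that was -0.23 on the log2 scale with the TMM factors. TTAAAC, the core recognized by Mmi1, occurred on the sense strand of the coding sequence in 15 of 56 of the genes (26.8%) and in 1688 of 5107 of all genes (33.1%).

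Of the 12 on chromosome III, 3 belong to the *wtf* family of meiotic drivers and their relatives, spore-killing genes scattered on chromosome III. *wtf20*, an antidote-like drive suppressor (2019973 to 2021941, + strand), measured 0.0172 and 0.0147 tag/nt in the WT pair against 0.182 and 0.193 tag/nt in the mutant pair, a ratio of 11.8. *wtf17* measured 0.0381 and 0.0407 tag/nt in the WT pair against 0.272 and 0.297 tag/nt in the mutant pair, a ratio of 7.22. *wtf12* measured 0.0510 and 0.0481 tag/nt in the WT pair against 0.341 and 0.321 tag/nt in the mutant pair, a ratio of 6.68. RefSeq lists *wtf12* and *wtf17* as pseudogenes. These values are uncertain, since 47.4% of the 50-nt stretches of *wtf20* and 28.7% of those of *wtf17* occur elsewhere on the chromosomes, and 0.274% of those of *wtf12*. The study's legends describe densities from uniquely mapped reads, in which reads that fit several places would be missing. Of the 58 genes searched, 53 had no repeated stretch, and the others with any were *mug135* (8.93%) and *aar2* (2.52%). Of the 17 other *wtf* genes, 15 were called higher, beside 54.8% of all mRNAs, with a median ratio of 3.48 and ratios up to 5.16 for *wtf8*. Their median stayed above 1 under all scalings, at a log2 ratio of 0.60 with the median of ratios, where 4 were called higher.

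Both redox genes had ratios near 8 from very different levels. *pmp20* (SPCC330.06c, chromosome III, 118222 to 119002, − strand), annotated as a thioredoxin-related chaperone, was by far the most abundant of the 60, at 27.5 and 29.1 tag/nt in the WT pair (25442 and 25196 reads) against 224 and 241 tag/nt in the mutant pair (149164 and 164487 reads), a ratio of 8.23. It alone took more reads than the other 59 together. *gst1*, a glutathione S-transferase, measured 0.0223 and 0.0229 tag/nt in the WT pair against 0.192 and 0.184 tag/nt in the mutant pair, a ratio of 8.32. Of the other genes of a stress list, 13 of 40 were called higher, beside 54.8% of all mRNAs, and 2 lower, the peroxiredoxin *tpx1* (ratio of 0.434, adjusted p = 5.36e-06 from limma) and the catalase *ctt1* (0.367, adjusted p = 4.47e-06). The median ratio of the stress list was 1.18 and its log2 median turned to -0.93 with the TMM factors, where the counts turned too, to 1 higher and 19 lower. *pmp20* and *mug135* lie on either side of *ura4*, 1495 nt and 2111 nt from the annotated gene, which is deleted in both strains. Whether this deletion has a part in their levels was not tested.

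Another 4 act in RNA processing or decay. *edc1*, an enhancer of the decapping that precedes degradation by Exo2 (chromosome I, 2231661 to 2234214, − strand), measured 0.695 and 0.639 tag/nt in the WT pair (2102 and 1809 reads) against 9.96 and 10.1 tag/nt in the mutant pair (21670 and 22394 reads), a ratio of 15. The replicates of *edc1* lay close together, and it had the second largest ratio on many more reads than *mug146*. *pus2*, a tRNA pseudouridine synthase (chromosome II, 3559270 to 3561112, + strand), measured 0.351 and 0.393 tag/nt in the WT pair against 2.97 and 2.85 tag/nt in the mutant pair, a ratio of 7.83. *aar2*, needed for assembly of the U5 snRNP of the spliceosome, measured 0.189 and 0.200 tag/nt in the WT pair against 1.496 and 1.66 tag/nt in the mutant pair, a ratio of 8.111. *utp16*, a component of the U3 snoRNP in ribosome synthesis, had a ratio of 7.39. Of the genes beside *edc1*, *mra1* had a ratio of 2.04 (adjusted p = 8.08e-06 from limma) and *lem2* 1.47 (adjusted p = 0.00143, not past the 2-fold threshold).

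The coding exons, which the table lists separately, gave a ratio above 6 for 55 of the 60, and for 50 it was within 10% of that of the whole transcript. The exceptions include *pus2*, whose coding exons had a ratio of 3.57 (461 reads in WT and 1245 in the mutant pair) while the rest of its transcript had one of 9.61. The coding exons of *pus2* held 29.4% of its reads in WT and 13.5% in the mutant pair, so that most of its signal lay outside the coding part. *scr1*, with a leader of 1489 nt, likewise had a lower ratio over its coding exons, 5.03, against 9.40 outside them. In *edc1* the ratio was 12.1 over the coding exons and 17.6 outside, most of which is a trailer of 1488 nt. *wtf20* went the other way, with 17.5 over its coding exons and 5.09 outside. SPCC1235.18 had 3 reads on its coding exons in WT against 58, a ratio of 26.0 with an exact 95% interval of 8.37 to 128, and its coding exons held 3.66% of its reads in WT and 12.1% in the mutant pair.

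**Figure D2:**
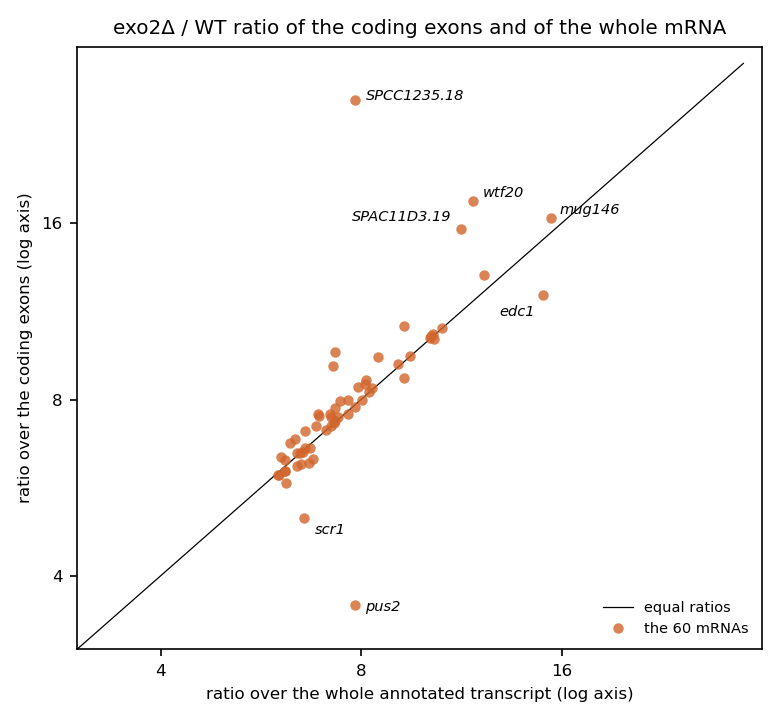
Ratio of densities between libraries labelled *exo2*Δ and WT over the whole annotated transcript (x axis, log scale) and over the coding exons only (y axis, log scale) for the 60 mRNAs, with the line of equal ratios. Most points lie on the line, while *pus2* (7.83 and 3.57) and *scr1* (6.58 and 5.03) fall below it and *wtf20* (11.8 and 17.5) and SPCC1235.18 (7.85 and 26.0, the latter on 3 WT reads) lie above it.

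A group of 7 encodes proteins of chromosomes or transcription, with ratios between 6.01 and 7.18. *scr1*, the transcriptional repressor of glucose-repressed genes (chromosome II, 1752100 to 1755619, + strand), measured 0.0130 and 0.0151 tag/nt in the WT pair against 0.0937 and 0.0909 tag/nt in the mutant pair, a ratio of 6.58. It shares 998 nt with *XUT1071* on its own strand, so that reads of the 2 features cannot be told apart there. *hus1*, a subunit of the checkpoint clamp loaded at damaged DNA, measured 0.152 and 0.161 tag/nt in the WT pair against 1.00 and 1.17 tag/nt in the mutant pair, a ratio of 6.91. *est1*, a regulator of telomerase, measured 0.0942 and 0.0990 tag/nt in the WT pair against 0.545 and 0.620 tag/nt in the mutant pair, a ratio of 6.03. *dad3*, of the DASH complex that couples kinetochores to microtubules, and *mis20*, of the Mis18 complex at centromeres, had ratios of 6.17 and 6.01. *hfi1*, of the SAGA coactivator, and *elp5*, of Elongator, had ratios of 7.18 and 6.27. *elp5* lies between the ribosomal protein genes *rpl1001* (ratio of 0.670) and *rps21* (0.905), at 65 and 52 nt, neither of which was called. Of the 20 other genes of a carbon list, which includes glucose-repressed genes, 15 were called higher, beside 54.8% of all mRNAs, with a median ratio of 2.93, and its median stayed above 1 under all scalings (log2 of 0.35 with the median of ratios, 5 higher and 1 lower).

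A pair of genes, *coa2* and *qcr10*, acts in the mitochondrial respiratory chain. *coa2*, an assembly factor of cytochrome c oxidase, measured 0.744 and 0.836 tag/nt in the WT pair against 5.91 and 5.601 tag/nt in the mutant pair, a ratio of 7.29. *qcr10*, a small subunit of the ubiquinol-cytochrome c reductase, measured 0.609 and 0.621 tag/nt in the WT pair against 3.99 and 3.48 tag/nt in the mutant pair, a ratio of 6.07. Their coding parts are short, 261 and 240 nt.

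Another 6 act at membranes or in signalling, with ratios from 6.47 to 7.27. *vsl1*, a SNARE protein of vacuolar fusion, measured 0.118 and 0.124 tag/nt in the WT pair against 0.769 and 0.877 tag/nt in the mutant pair, a ratio of 6.79. *atg2402*, linked to autophagy, measured 0.0725 and 0.0740 tag/nt in the WT pair against 0.484 and 0.518 tag/nt in the mutant pair, a ratio of 6.84. SPBC1271.05c, an AN1-type zinc finger protein, measured 0.0880 and 0.0752 tag/nt in the WT pair against 0.623 and 0.564 tag/nt in the mutant pair, a ratio of 7.27. The kinase *ppk24*, the arrestin-related *art1* and the palmitoyltransferase *pfa3* had ratios of 6.90, 6.70 and 6.47. *pfa3* was, with *pmp20*, one of only 2 of the 60 above 1 tag/nt in WT, at 0.959 and 1.06 tag/nt.

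The remaining 15 have no assigned role here, and their ratios ran from 6.42 to 11.3. Besides the SPAC11D3 genes, the highest were SPAC1142.09, SPAC29A4.23 and the yippee-like protein SPAPJ691.02. SPAC1142.09 measured 0.00971 and 0.0311 tag/nt in the WT pair (4 and 12 reads) against 0.199 and 0.188 tag/nt in the mutant pair (59 and 57 reads), a ratio of 9.48. Its WT replicates differed by more than those of any better covered gene, and its ratio was 6.22 without WT replicate 1 and 19.9 without WT replicate 2. The pooled reads gave an exact 95% interval of 5.69 to 17.4, which covers counting error only. SPAC29A4.23 measured 0.0306 and 0.0310 tag/nt in the WT pair against 0.242 and 0.330 tag/nt in the mutant pair, a ratio of 9.29, and SPAPJ691.02 at 0.0707 and 0.0685 tag/nt and at 0.644 and 0.645 tag/nt, a ratio of 9.27. SPAC29A4.23 shares 221 nt with an annotated ncTU of the same strand. Others were SPCC1235.18 (7.85), SPAPB1A11.05 (7.83), SPAC11H11.03c (7.43), SPCPB16A4.06c (7.31), *tam12* (7.09), SPBC18E5.14c (6.60), *prl65* (6.59), SPCC622.04 (6.503) and SPBC14C8.11c (6.42).

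**Figure D3:**
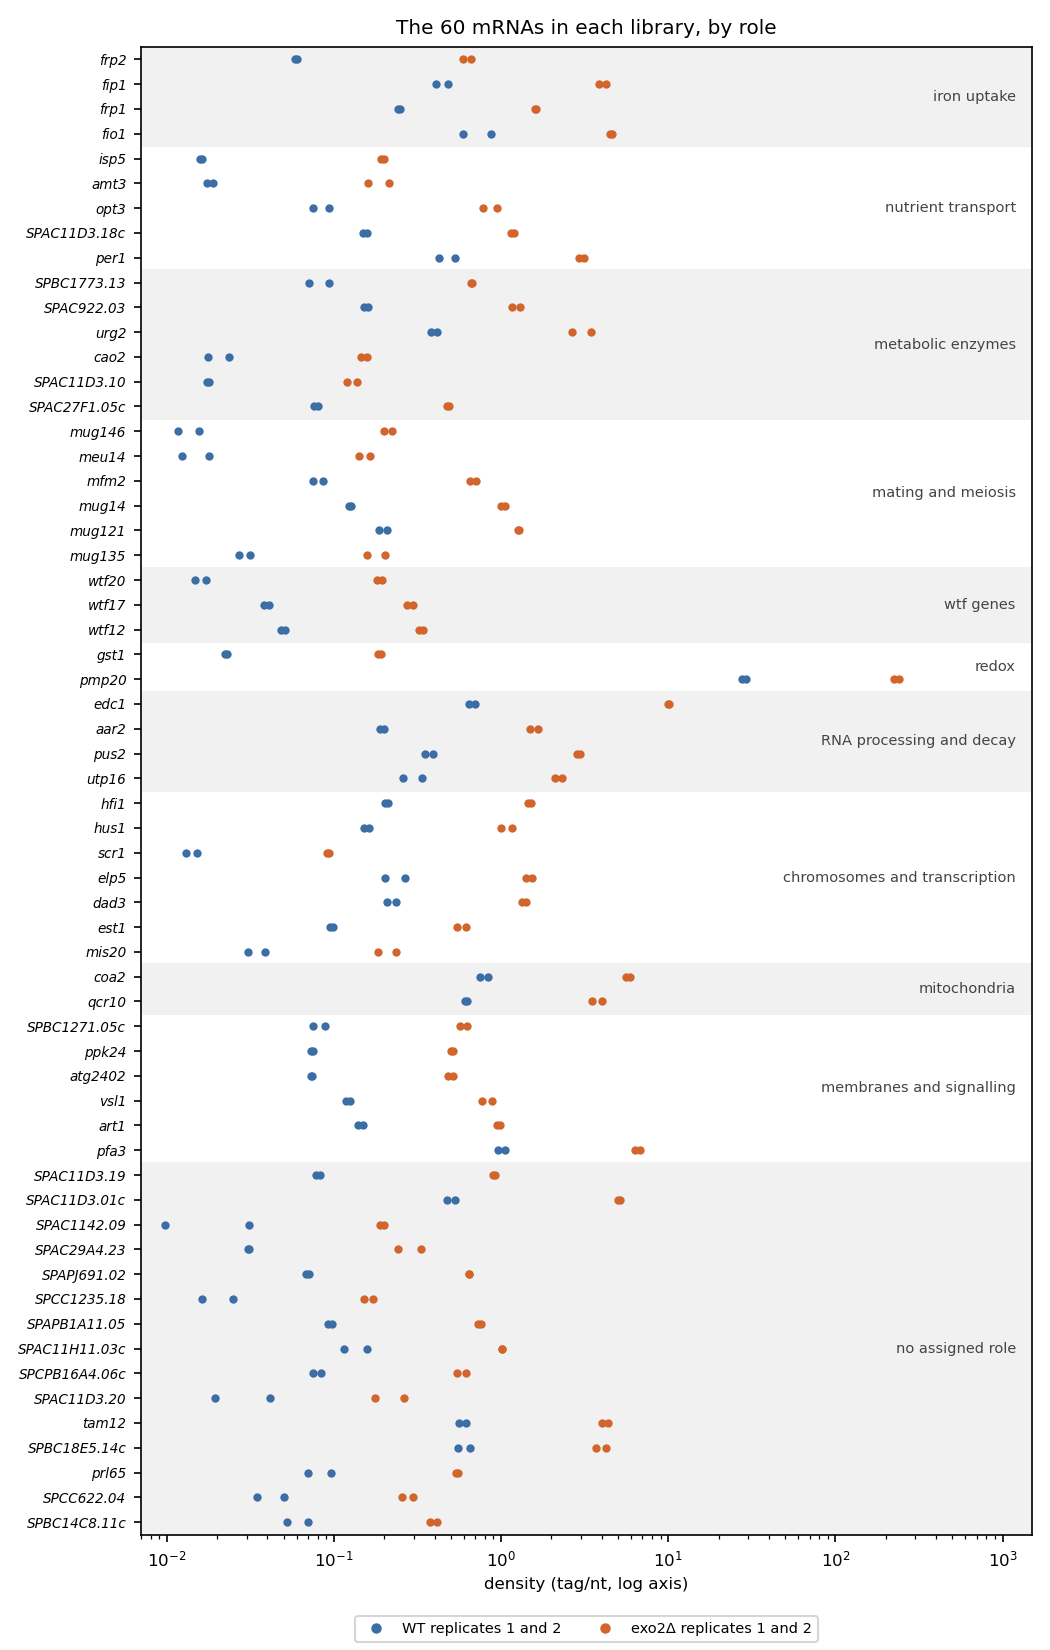
Density of each of the 60 mRNAs in the 2 WT libraries (blue) and the 2 libraries labelled *exo2*Δ (orange), on a log axis in tag/nt, grouped by role and ordered by ratio within each group. In every row both orange points lie to the right of both blue points, from *mug146* at 0.0117 and 0.0156 tag/nt in WT to *pmp20* at 224 and 241 tag/nt in the mutant pair.

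Of the 60, 18 (30%) had an XUT on the other strand over at least 50 nt, beside 21.3% of the 4814. They had 19 XUTs in all, as *isp5* had 2. The authors' XUT calls come from the libraries used here, so that their ratios are a description too. These ran from 2.08 to 22.7 with a median of 4.58, beside 3.88 for all XUTs. Of the 19, 7 crossed the annotated start of the gene, 2 its end, 8 lay inside and 2 covered it whole. These positions and the count of 18 use the gene spans of the deposited table. RefSeq starts *isp5*, SPBC1271.05c and SPCPB16A4.06c further downstream. *XUT0776*, *XUT0185* and *XUT0855* lie wholly before those RefSeq starts. The mRNAs with an antisense XUT had a median ratio of 7.29 and the 42 without one 7.31, without a test. With an annotated lncRNA counted as well, 26 of the 60 had an antisense noncoding transcript. That count was not made over the 4814, so that it cannot be read as high or low.

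In 4 pairs the XUT was denser than the mRNA in the mutant pair, with the mRNA taken over its whole annotated transcript. Over the coding exons this held only for *meu14* and *gst1*. The coding exons of *isp5* (mean of 0.349 tag/nt) and *mis20* (0.455 tag/nt) were denser than *XUT0776* (0.325 tag/nt) and *XUT0366* (0.335 tag/nt). *XUT0419* covers all of *meu14* and measured 0.183 and 0.181 tag/nt in the WT pair against 0.745 and 0.819 tag/nt in the mutant pair, a ratio of 4.30 and 509% of the density of *meu14* there. *XUT0776* crosses the start that the deposited table gives for *isp5*, from 218 nt before it to 618 nt inside. It measured 0.0504 and 0.0442 tag/nt in the WT pair against 0.306 and 0.344 tag/nt in the mutant pair, 166% of *isp5*. *XUT0900* crosses the start of *gst1* and *XUT0366* lies inside *mis20*, at 156% and 160% of their mRNAs. In these 4 pairs mRNA and XUT were both higher in the mutant pair, and none of the 18 mRNAs was lower where its XUT was higher, which the choice of the genes and of the XUTs fixes.

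In the other 15 pairs the mRNA was the denser of the pair. The largest XUT ratios belonged to *XUT1491* over the start of *aar2* (12 and 11 reads in WT, 187 and 205 in the mutant pair, 22.7), *XUT0801* inside *pmp20* (16.7) and *XUT0712* at the end of *fio1* (17 and 18 reads in WT, 209 and 194 in the mutant pair, 15.3). *XUT0801* had 0 and 2 reads in the WT pair against 12 and 14 in the mutant pair, 0.0288% of the density of *pmp20* on the opposite strand, and whether its reads are misassigned sense reads was not tested. *XUT1199* covers the short gene *tam12*, at 2.26% of its density. Among the other XUTs at gene starts of the deposited table were *XUT0145* at *opt3* (ratio of 3.194), *XUT0185* at SPBC1271.05c (7.73), *XUT0855* at SPCPB16A4.06c (4.48) and *XUT1585* at *hus1* (4.58). *XUT0800* overlapped the end of *mug135* (5.83). Inside the genes lay *XUT0777* (*isp5*, 7.58), *XUT0168* (*mug14*, 5.34), *XUT0388* (*pus2*, 4.32), *XUT0301* (*atg2402*, 3.31), *XUT0818* (*vsl1*, 2.94) and *XUT0758* (*dad3*, 2.83).

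**Figure D4:**
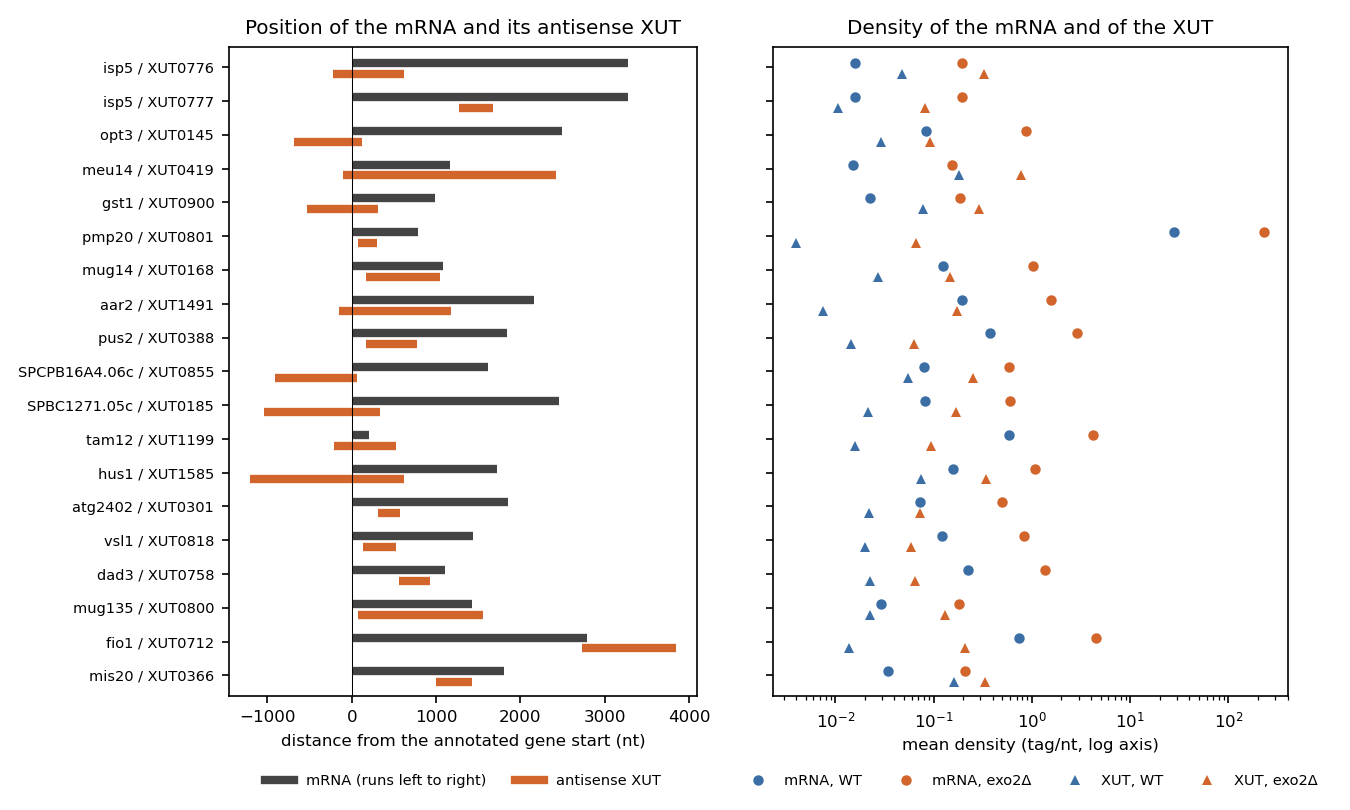
Left, position of each antisense XUT (orange bar) beside its mRNA (dark bar) in nt from the annotated gene start, with the mRNA running to the right. Right, mean density (tag/nt, log axis) of the mRNA (circles) and of the XUT (triangles) in WT (blue) and in the libraries labelled *exo2*Δ (orange). Only for *isp5* with *XUT0776*, *meu14*, *gst1* and *mis20* does the orange triangle lie to the right of the orange circle, from 156% to 509% of the mRNA.

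Neighbours were taken as the next protein-coding gene on either side by order of gene starts, whatever the gap (39182 nt between *per1* and *emc5*). Leaving out genes of the 60 themselves and those that overlap on the same strand, there were 113, of which 111 could be tested. Of these, 72 were called higher in limma's test, 64.9% beside 54.8% of all mRNAs tested, and the median ratio was 2.38 beside 2.11. None had a ratio above 6, which leaving out the 60 fixes except for genes near an end or under 0.01 tag/nt in WT. SPBC18E5.09c next to SPBC18E5.14c was the nearest to it (5.95, adjusted p = 2.01e-06), and 7 had a ratio under 1. By orientation, 20 of 23 downstream genes on the other strand were called higher (median ratio of 2.81), 17 of 35 downstream genes on the same strand (2.04), 18 of 30 upstream genes on the other strand (2.202) and 17 of 25 upstream genes on the same strand (2.39). With the TMM factors 7 and with the median of ratios 6 of the flanking genes were called higher. Only *fip1* with *fio1* and SPAC11D3.19 with SPAC11D3.01c were next to another of the 60.

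Of the 113, 13 overlapped one of the 60 on the other strand, and 8 of these were called higher. *rps1401*, a ribosomal protein gene, lies opposite 640 nt of *aar2*. It was at 14.3 tag/nt in WT with a ratio of 0.669 (adjusted p = 0.00191 from limma), while *aar2* had a ratio of 8.111. *smc5*, over 462 nt of the start of *dad3*, had a ratio of 1.68 (adjusted p = 0.00101, not past the 2-fold threshold). SPCC1235.17 and SPCC622.03c, which lie opposite most of SPCC1235.18 and SPCC622.04, had ratios of 2.49 (adjusted p = 0.00771) and 2.22 (adjusted p = 0.000136), and *mpc1*, which overlaps the end of *mug146* by 75 nt, 2.47 (adjusted p = 3.57e-06). SPAC11D3.11c, opposite SPAC11D3.20, had a ratio of 3.34 (adjusted p = 1.15e-05 from limma). *mrpl24* lies opposite SPBC14C8.11c over 1531 nt but is not among the 113, which were taken by order of gene starts. Its ratio was 4.12 (adjusted p = 4.23e-06 from limma). *rpb8*, over 152 nt of SPBC14C8.11c, had a ratio of 3.14 (adjusted p = 3.83e-06), *myo51*, opposite the end of *est1*, 3.07 (adjusted p = 6.56e-06), and *mam2*, at the start of SPAC11H11.03c, 2.19 (adjusted p = 0.0011). *pol1* at *aar2* had 2.103 (adjusted p = 0.000129), SPBC887.17 at *hfi1* 1.65, SPAC2E1P3.01 at *amt3* 1.95 and *mre11* at *mug121* 1.22, the last 3 not past the threshold. On the same strand, 14 of the 60 overlapped another feature and may share reads with it, among them *pmp20* with SPNCRNA.1110 (33 nt) and *ppk24* with *spn7* (126 nt, ratio of 4.39).

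**Figure D5:**
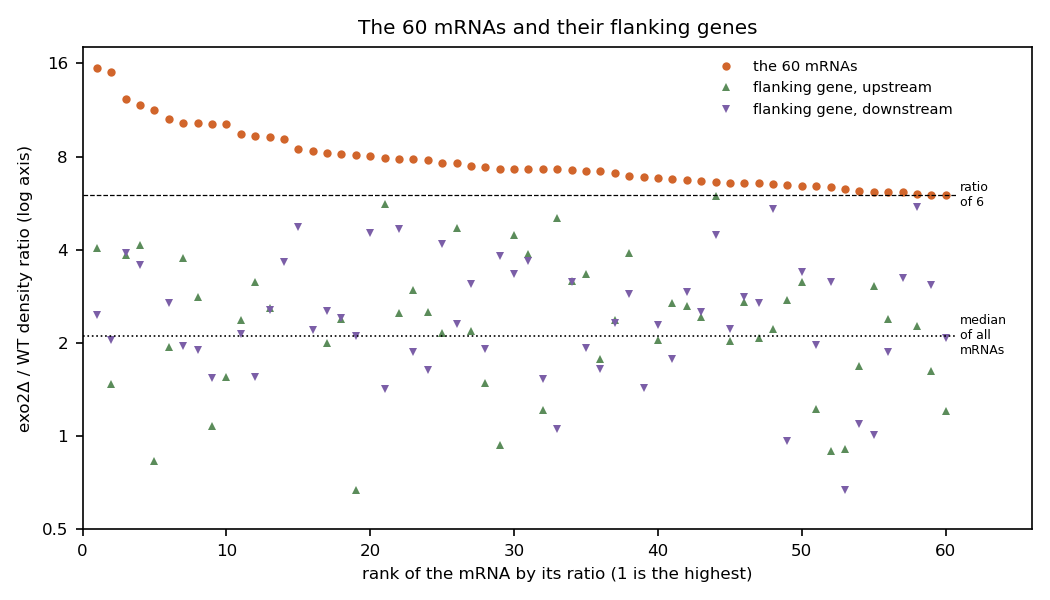
Ratio of densities between libraries labelled *exo2*Δ and WT (y axis, log scale) for the 60 mRNAs (orange, ordered by rank) and for their flanking genes upstream (green) and downstream (purple). The dashed line is the ratio of 6 and the dotted line the median of all mRNAs (2.11). All flanking genes lie under the dashed line, which leaving out the 60 largely fixes, with a median of 2.38.

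Features of gene structure, which the rule did not use, are given beside those of the 4814. The coding length of the 60 was 900 nt at the median, beside 1149 nt, and 10 of them (16.7%, beside 4.40%) were under 300 nt. An intron in the coding part was found in 22 (36.7%) against 47.8%. The annotated leader had a median of 127.5 nt against 161 nt, but 15 (25%) had a leader of more than 500 nt, against 13.4%. These leaders are those of the deposited table. RefSeq gives no leader for *amt3*, SPCC1235.18, SPCPB16A4.06c and SPCC622.04, which are all among the 15. Its starts also leave under 500 nt for *isp5*, *mis20*, *per1*, SPAC11D3.18c, SPAC27F1.05c, SPAC11D3.10 and SPBC14C8.11c of the 15. They give more than 500 nt for *mug121*, which is not among the 15. The 25% therefore holds for the deposited spans only. The share over the 4814 was not compared with RefSeq. The chromosomes held 26, 22 and 12 of the 60, beside 2220, 1768 and 826 of the 4814. None of these features was tested. Of the binding sites searched in the 250 nt before the RefSeq start, on both strands, TGACGT (the core bound by Atf1 and Pcr1) was in 3 of 58 windows (5.17%, against 5.52% of all 5110), TTCTTTGTT (Ste11) in 1 (1.72% against 1.62%), GTAAACA (forkhead factors) in 7 (12.1% against 14.8%), GAANNTTC (heat shock factor) in 2 (3.45% against 9.51%) and ACGCGT (MBF) in 1 (1.72% against 2.64%). The *Tf2* retrotransposons, none of which is among the 60, were called higher in 13 of 13 (median ratio of 3.60), beside 54.8% of all mRNAs. With the TMM factors 0 of 13 were called higher, and their median was 0.70 on the log2 scale. Repeated stretches were not searched in these genes. A thiamine list of 11 genes had a median ratio of 1.96 with 4 called higher, beside the same 54.8%. A phosphate list of 7 genes had a median of 1.53 with 2 higher and 1 lower. Both medians changed sign with the TMM factors (-0.21 and -0.57 on the log2 scale).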

How the data were processed

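Total RNA libraries of 2 WT and 2 *exo2*Δ samples were analysed from the deposited table of features. Its signal, a density in tag/nt (reads per nucleotide of each feature), had been normalized on sn(o)RNAs by the authors, who mapped reads with TopHat to ASM294v2. The counter and the handling of overlapping features are not given in the sources used here. Density times length came out as whole multiples of 1 step per library, which gave the read numbers. The authors' columns summed over replicates were not used. The members and the gene lists were chosen with earlier results of these data known, the GATAA motif was added after the members were seen, and roles were assigned afterwards. By rule the text names the 25 largest ratios, members on a list or with an antisense XUT, genes at the thresholds and *exo2*; the other members were named after their values were seen.

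Tests used limma 3.58.1 (R 4.3.3) on log2(density + 1.55e-04) for 8826 of 9139 features with at least 10 reads, with Benjamini-Hochberg adjustment over all features. The study's methods call the samples biological replicates, and the labels give a replicate number. With 2 samples against 2, p-values rest on a spread pooled over features. Intervals on read numbers are exact and cover counting error only. Tables and figures were made with Python 3.11.15, and the fits were tested on simulated data. Alternatives changed the scaling, pseudocount, filter, test weights, replicate block, feature part and libraries. RefSeq sequences are of ASM294v3.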

Additional observations from a re-analysis of the deposited data

How the results depend on the processing

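The rule gave 60 mRNAs with the deposited scaling, 15 with scaling on total reads, 2 with TMM factors and 2 with the median of ratios, and the median log2 ratio of the 60 (2.87) became 2.38, 1.69 and 1.67 in that order. Features called higher (5428) became 3075, 1120 and 1085, mRNAs called higher (2782) became 1223, 266 and 250, and flanking genes called higher (72) became 36, 7 and 6. These settings divide all features of a library by another constant. Leaving out each library in turn gave 55 to 63 members, a median log2 ratio of 2.81 to 2.95, 5032 to 5504 features, 2656 to 2865 mRNAs and 70 to 77 flanking genes, the lone library being assumed to vary like the other group. With the replicate block, 5423 features, 2776 mRNAs and 73 flanking genes were called higher. The labels share only a replicate number, and the deviations of same-numbered libraries correlated at 0.283 across 5447 features, which are not independent replicates. The other alternatives stayed within 1.5 times these counts. Depth limits 13 of the 60, which had under 100 reads over both WT libraries.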
